A study of Homo sapiens with 12 samples.

Results

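The 8 codons for proline (CCU, CCC, CCA and CCG) and glycine (GGU, GGC, GGA and GGG) were examined for how often ribosomes, and pairs of stacked ribosomes, were found on them. They were taken as every codon that the occupancy tables assign to Pro or Gly, which gave 8 of the 61 sense codons, 4 per amino acid, in both tables. The tables come from ribosome and disome profiling of HEK293 cells, a line of transformed cells from human embryonic kidney that the study's methods call HEK-293T. The cells were wild type (WT) or carried a CRISPR-Cas9 deletion of THUMPD1 (KO), the adapter without which NAT10 does not acetylate cytidine in Leu and Ser tRNAs. All cells received the same medium, and cycloheximide, which arrests elongating ribosomes, was in the lysis buffer of both genotypes. Each genotype had 4 libraries of monosome footprints and 2 of disome footprints, 12 libraries in all. The libraries are given as biological replicates. By the study's methods the KO cells came from candidate clones sorted as single cells, and how many clones were profiled is not given in the sources used here. As codons and not genes were tabulated, neither the deletion nor the cell type could be checked.

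Proline is the only encoded amino acid whose backbone nitrogen lies in a ring, and both proline and glycine are poor substrates for peptide bond formation. Runs of proline stall ribosomes, and the translation factor eIF5A relieves such stalls. Human Pro codons are read by tRNAs with the anticodons AGG (with inosine at its first base), UGG and CGG, and Gly codons by tRNAs with the anticodons GCC, UCC and CCC. These tRNAs lack the long variable arm of Leu and Ser tRNAs. In a monosome footprint the A-site codon is the codon awaiting its tRNA. In a disome footprint it is the A-site codon of the leading ribosome, the one into which a trailing ribosome has run. That the tables describe the A site rests on the study's description.

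Each value is a relative occupancy, a ratio with a mean near 1 over the codons of a library. Its denominator is not given in the sources used here, so what a value of 1 stands for is unknown. Library means were 0.981 to 1.00 in monosomes and 0.949 to 0.962 in disomes. Log2 occupancy of the 61 codons correlated between libraries with r from 0.775 to 0.963 in monosomes and from 0.854 to 0.915 in disomes. The 8 Pro and Gly codons alone gave r from 0.315 to 0.965 and from 0.631 to 0.897, a description over 8 points per pair of libraries. The depth behind a value is unknown, and the spread between libraries is the only error given. Monosome libraries that share a replicate number deviated together, and features of the Pro and Gly values that follow these numbers are given beside the results.

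In monosome footprints Pro codons lay near the middle of the 61 codons and Gly codons in the lower part, whereas in disome footprints both groups ranked high. By mean log2 occupancy over all monosome libraries, the median rank was 27.5 for the 4 Pro codons and 46.5 for the 4 Gly codons, where rank 1 is the most occupied codon. In disomes the median rank was 9 for Pro and 14.5 for Gly. Among the 20 amino acids, each taken as the mean of its codons, Pro stood at rank 9 in monosomes and 4 in disomes, and Gly at rank 15 in monosomes and 5 in disomes. The rank of Pro over single libraries was 5 to 12 in monosomes and 3 to 4 in disomes. That of Gly was 12 to 19 and 5 to 6. The 2 tables may have been normalized separately, so ranks and levels were set side by side without a test.

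**Figure D1:**
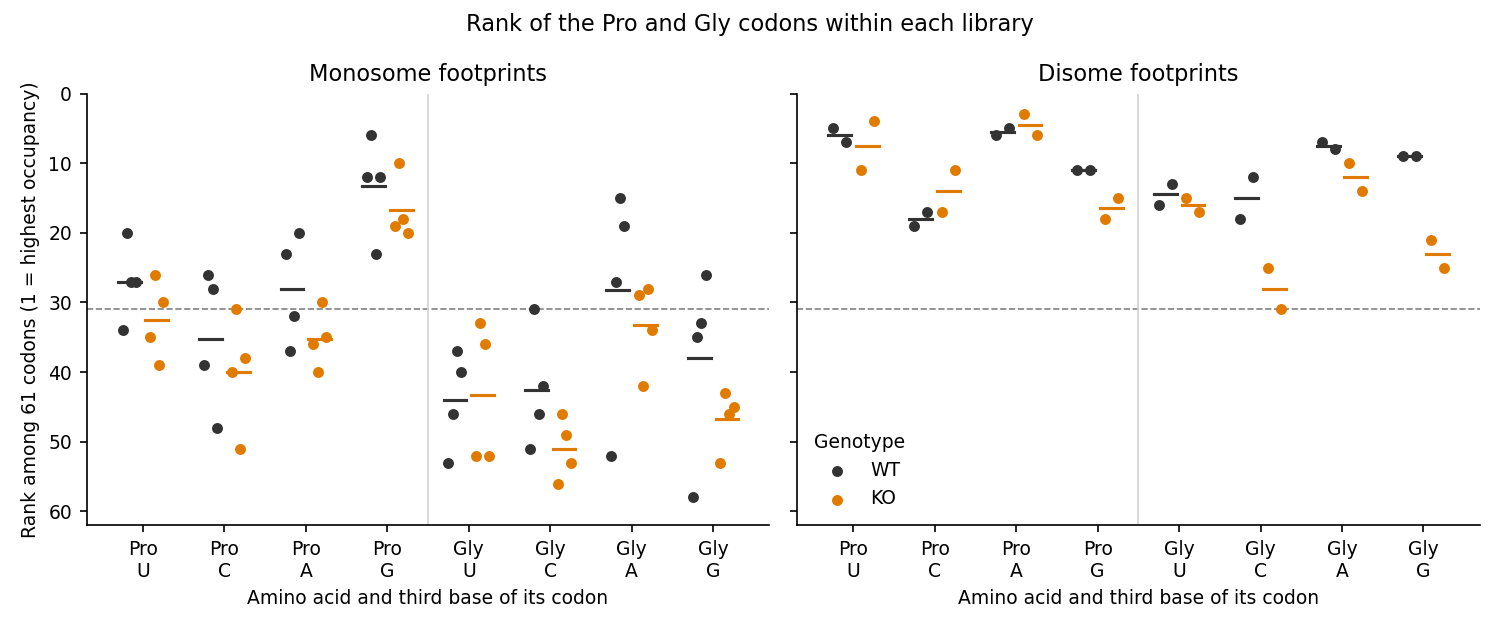
Rank of each Pro and Gly codon among the 61 codons of its library (vertical axis, 1 at the top is the highest occupancy), for monosome libraries on the left and disome libraries on the right. Points are libraries, WT in black and KO in orange, bars are means and the dashed line is the middle rank, 31. In disomes 31 was the lowest rank reached, by GGC in 1 KO library.

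Of the 8 codons, 7 moved up the order from monosomes to disomes, where 24 of all 61 codons did. Of the 8, 6 (all but CCG and GGC) ranked higher in every disome library than in any monosome library. Over all 61 codons, 10 codons, or 16.4%, were separated in this way, so 6 of these 10 were Pro or Gly codons. GGU and GGG moved furthest, each by 32 places, from rank 46 to 14 and from 47 to 15. GGC moved by 28 places, from 49 to 21, although its best monosome rank and its worst disome rank were both 31. CCA moved from rank 29 to 5, CCU from 26 to 6, GGA from 30 to 8 and CCC from 41 to 19. CCG was the exception, at rank 12 in both tables. In the WT libraries alone the rank in monosomes and in disomes was 9 and 11 for CCG, 46 and 9 for GGG, 45 and 16 for GGC, 26 and 5 for CCA, and 32 and 18 for CCC, whose monosome rank was 41 over all libraries.

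Base composition was compared as well. In monosomes CCG was the most occupied of the 8 codons made of G and C alone, while CCC, GGG and GGC were at ranks 6, 7 and 8 of these. In disomes the first 4 of the same 8 codons were CCG, GGG, CCC and GGC. Across the 61 codons the number of G and C bases correlated with log2 occupancy with r from -0.15 to 0.19 over monosome libraries and from 0.01 to 0.16 over disome libraries, values that describe codons sharing a library.

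Among Pro codons, CCG was the most occupied in monosomes. Its occupancy was 1.20, 1.45, 0.976 and 1.15 in WT replicates 1 to 4, and 1.07, 1.28, 1.05 and 1.04 in KO replicates 1 to 4. In every one of the 8 libraries it was the highest of the 4 Pro codons, and it was the only Pro or Gly codon above the library median in all 8. The excess differed widely between libraries, since both replicate 2 libraries had the highest CCG of their genotype, and in WT replicate 3 CCG exceeded the next Pro codon, CCU, by only 0.03 on the log2 scale. Spread across all codons was also widest in the replicate 2 libraries, with an SD of log2 occupancy of 0.41 and 0.39, and narrowest in WT replicate 3, at 0.26. The part of this in the CCG values was not tested.

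The other Pro codons lay close together in monosomes. Mean occupancy in WT was 0.945 ± 0.0417 (SD, n = 4) for CCU, 0.936 ± 0.0424 for CCA and 0.906 ± 0.0585 for CCC. To ask whether synonymous codons differed, the log2 difference between each pair was taken within each library and tested by an exact two-sided sign-flip permutation test over the 8 libraries, with p-values adjusted over the 12 pairs of both amino acids. CCG was higher than CCC by 0.36 ± 0.19 (SD), than CCA by 0.32 ± 0.22 and than CCU by 0.30 ± 0.17, each in 8 of 8 libraries (exact p = 0.0078, the smallest possible, adjusted p = 0.0187). CCU was higher than CCC by 0.06 ± 0.04, also in 8 of 8 libraries (exact p = 0.0078, adjusted p = 0.0187). Because same-numbered monosome libraries deviate together, these p-values treat paired libraries as independent. With the replicate number as a block, the 2 libraries of each number averaged, the differences kept their sign in 4 of 4 numbers for each of these pairs, but over 4 numbers the exact p cannot go below 0.125, so none could pass. CCU and CCA were not separated, with a difference of 0.02 ± 0.09 and library values from -0.10 to 0.18 (exact p = 0.617). Nor were CCA and CCC, with 0.04 ± 0.11 and library values from -0.13 to 0.20 (exact p = 0.297).

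**Figure D2:**
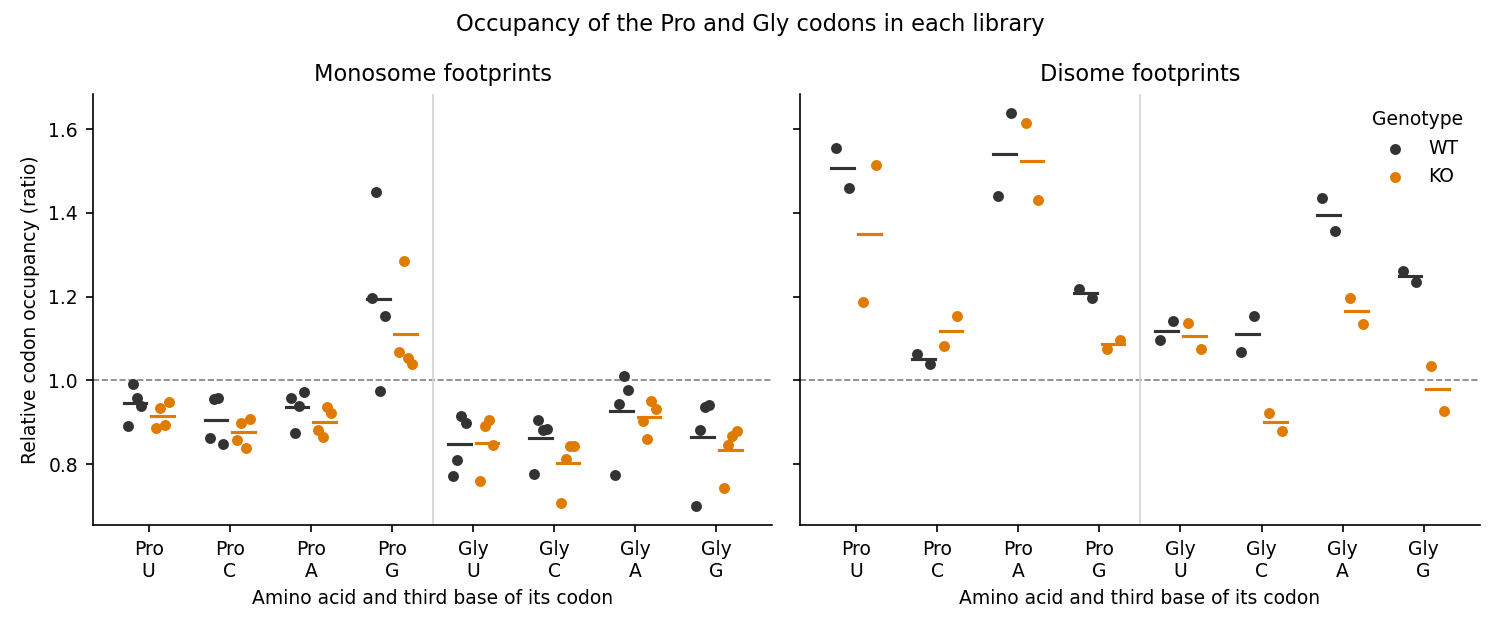
Relative occupancy (ratio) of each Pro and Gly codon, named by amino acid and the third base, in monosome libraries (left) and disome libraries (right). Points are single libraries, WT in black and KO in orange, and bars are means. The codon CCG stands above the other Pro codons in monosomes, and in disomes CCA and CCU lie highest.

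In disomes the order of the Pro codons was different. CCA held 1.44 and 1.64 in the WT libraries and 1.61 and 1.43 in the KO libraries, and CCU held 1.55 and 1.46 in WT and 1.19 and 1.51 in KO. These were followed by CCG, with 1.22 and 1.20 in WT and 1.08 and 1.10 in KO, and by CCC, with 1.06 and 1.04 in WT and 1.08 and 1.15 in KO. CCA and CCU, the codons with A or U as the third base, were above CCG and CCC in 4 of 4 disome libraries. CCA exceeded CCC by 0.50 ± 0.15 (SD) on the log2 scale and CCG by 0.42 ± 0.14, and CCU exceeded CCC by 0.39 ± 0.18 and CCG by 0.31 ± 0.14. Each had an exact sign-flip p of 0.125, the smallest that 4 libraries can give, so no disome pair could pass the threshold. CCG was above CCC in both WT libraries, by 0.20, and below it in both KO libraries, by 0.04 on average (KO minus WT of this difference -0.24, exact permutation p = 0.333, the smallest possible).

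Among Gly codons, GGA was the most occupied in both tables. In monosomes GGA held 0.774, 0.945, 1.01 and 0.977 in WT replicates 1 to 4, and 0.904, 0.860, 0.952 and 0.932 in KO replicates 1 to 4. It was the highest Gly codon in 6 of 8 monosome libraries and in 4 of 4 disome libraries. In monosomes GGA exceeded GGG by 0.12 ± 0.08 (SD) on the log2 scale in 8 of 8 libraries (exact p = 0.0078, adjusted p = 0.0187). It exceeded GGC by 0.14 ± 0.11 in 7 of 8 libraries (exact p = 0.0156, adjusted p = 0.0312) and GGU by 0.11 ± 0.10 in 7 of 8 libraries (exact p = 0.0234, adjusted p = 0.0402). These last calls are the weaker ones, since the adjusted p for GGC was 0.0536 to 0.0625 when any library other than WT replicate 1 was left out, and that for GGU was 0.0703 to 0.0804 without any of WT replicates 2, 3 and 4 or KO replicates 1, 3 and 4. In these tests of 7 libraries the smallest possible exact p is larger. With same-numbered libraries averaged, GGA was above each of the others in 4 of 4 replicate numbers, again with an exact p of 0.125, the smallest possible, so that these calls too do not pass with the block.

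The remaining 3 Gly codons lay close together in monosomes. Mean occupancy over the 8 libraries was 0.850 ± 0.0624 (SD) for GGU, 0.850 ± 0.0862 for GGG and 0.832 ± 0.0653 for GGC, and none of the 3 pairs among them passed the threshold (exact p from 0.344 to 0.922). GGG exceeded GGC by 0.03 over all libraries, and without WT replicate 1 by 0.05, which passed (exact permutation test, adjusted p = 0.0469). GGC was the lowest Gly codon in 6 of 8 libraries. Neither GGU nor GGC exceeded the median of its library in any monosome library. All Gly codons together were lowest in the replicate 1 libraries, where their mean log2 occupancy was -0.40 in WT and -0.37 in KO, against -0.10 to -0.23 in the other 6 libraries, so a part of the spread in Gly followed the replicate number in both genotypes.

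In disomes GGA again led, with 1.44 and 1.36 in WT and 1.20 and 1.13 in KO, and it exceeded GGC by 0.35 ± 0.08 (SD), GGG by 0.21 ± 0.07 and GGU by 0.20 ± 0.15 on the log2 scale, each in 4 of 4 libraries (exact p = 0.125). GGC was the lowest Gly codon in 3 of 4 disome libraries. It was below GGG in 4 of 4, by 0.14 ± 0.07.

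The dependence on the third base was set beside that in the 6 other four-codon boxes (Ala, Thr, Val, Leu CUN, Ser UCN and Arg CGN) as a description. In monosomes the codon ending in G was the highest of its box in 8 of 8 libraries for Pro and Ser, 7 for Thr, 6 for Ala and 5 for Val, and in 0 libraries for Gly, Leu and Arg. The deviation of the G-ending codon from its box mean was 0.24 ± 0.14 (SD, n = 8, log2 scale) for Pro, against 0.31 ± 0.13 for Ser, 0.23 ± 0.12 for Thr and 0.17 ± 0.15 for Ala. These are the boxes with C as the second base. In Gly, Leu and Arg the codon ending in A was the highest on average, by 0.09 ± 0.06, 0.28 ± 0.08 and 0.45 ± 0.05 over the box mean. The range between the highest and the lowest codon of a box was 0.36 for Pro and 0.14 for Gly, and the latter was the smallest of the 8 boxes.

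In disomes the Pro box had another order. CCG was 0.16 ± 0.06 (SD, n = 4) below the mean of its box and was the highest codon in 0 of 4 libraries, whereas the G-ending codon of Ala and Thr was above its box mean by 0.09 ± 0.04 and 0.17 ± 0.09. That of Ser had a deviation of 0.44 in WT and of -0.06 in KO. CCU, at 0.15 ± 0.14 above the mean of its box, was the only U-ending codon with a positive mean deviation among the 8 boxes. The C-ending codon was the lowest on average in both tables for Pro and Gly, as it was for Thr. The difference between Pro and the other boxes was not tested.

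**Figure D3:**
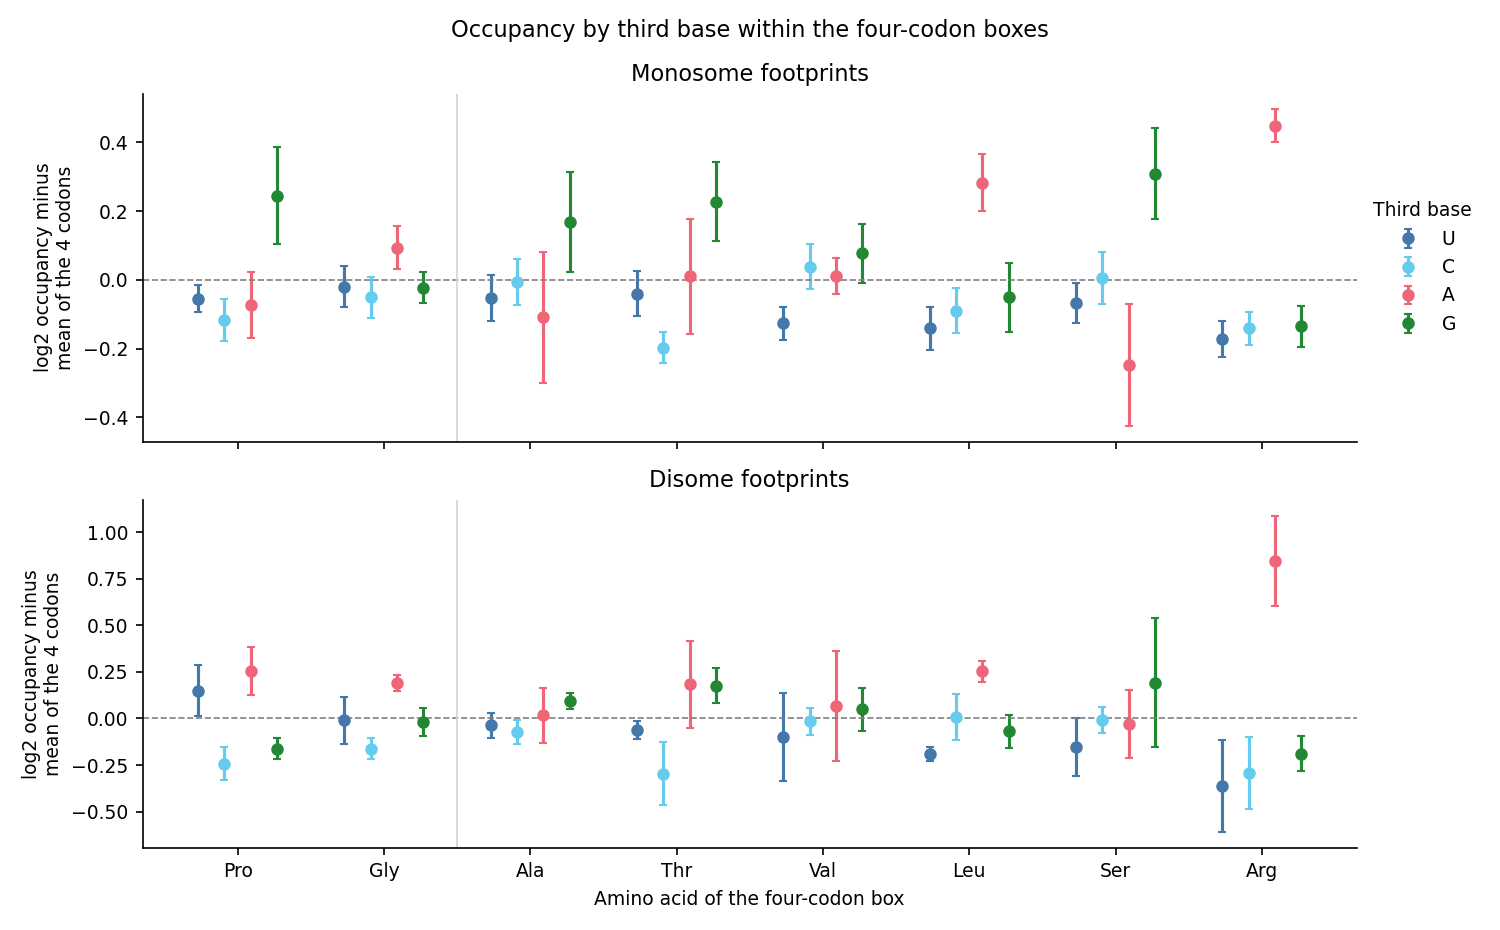
Log2 occupancy of each codon minus the mean of the 4 codons of its box (vertical axis), for Pro and Gly and 6 other four-codon boxes, in monosomes (top, 8 libraries) and disomes (bottom, 4 libraries). Points are means over libraries, error bars are SD between libraries and colours mark the third base. The G-ending Pro codon is above its box mean by 0.24 in monosomes and below it by 0.16 in disomes.

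To ask whether loss of tRNA acetylation altered these codons, KO was compared with WT by limma on log2 occupancy, with p-values adjusted over the 61 codons. In monosomes 0 of the 8 Pro and Gly codons passed an adjusted p of 0.05, where 6.56% of the 61 codons did. At an unadjusted p under 0.05 there were 0 as well, against 13.1% of all codons. Of the 8 codons, 7 had a lower mean log2 occupancy in KO, with a median change of -0.05, against a median of 0.00 and 32 of 61 lower over all codons. The most lowered were GGC, at 0.862 ± 0.0576 (SD, n = 4) in the WT libraries and 0.802 ± 0.0650 in the KO libraries, a difference of -0.11 on the log2 scale with a 95% interval from -0.27 to 0.06 (limma, adjusted p = 0.812), and CCG, with 1.19 ± 0.196 in WT and 1.11 ± 0.116 in KO, a difference of -0.10 with an interval from -0.35 to 0.16 (limma, adjusted p = 1.00). GGC was lower in KO in 4 of 4 same-numbered pairs of libraries, and with the replicate number as a block its limma p was 0.0138 unadjusted and 0.0763 adjusted. The block joined to the correction for base composition gave a change of -0.06 (limma, adjusted p = 0.453), and without KO replicate 1 the unblocked change was -0.05.

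The intervals of all 8 codons come from the fit without the replicate block, so they do not use the pairing of libraries. With the block the limma p of CCG was 0.0772 unadjusted and 0.265 adjusted. For the other 6 codons the unblocked values were as follows. The change was -0.05 for CCU (95% interval -0.16 to 0.07), -0.05 for CCC (-0.18 to 0.08) and -0.05 for CCA (-0.17 to 0.06). It was 0.00 for GGU (-0.17 to 0.17), -0.02 for GGA (-0.20 to 0.17) and -0.05 for GGG (-0.27 to 0.17). No WT and KO groups were separated for any of the 8 codons, while 9.84% of all codons had groups that did not overlap.

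**Figure D4:**
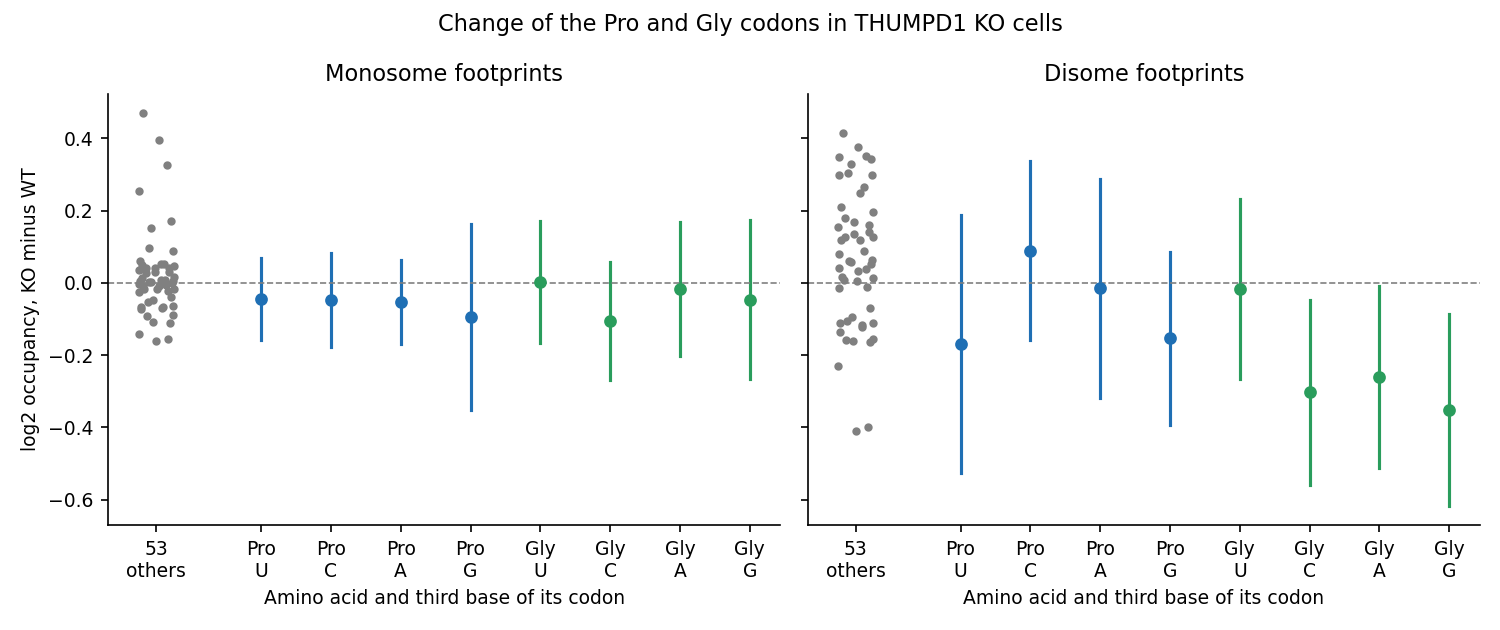
Difference in mean log2 occupancy between KO and WT (vertical axis) for each Pro codon (blue) and Gly codon (green), with 95% intervals from limma, in monosomes (left, 4 libraries per genotype) and disomes (right, 2 per genotype). Grey points are the 53 codons for other amino acids. In disomes the intervals of GGC, GGA and GGG lie below 0 before adjustment for multiple tests.

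In disomes 3 Gly codons had lower values in both KO libraries than in either WT library, as did 23% of all 61 codons. GGG held 1.26 and 1.24 in the WT libraries and 1.03 and 0.926 in the KO libraries. GGC held 1.07 and 1.15 in WT and 0.922 and 0.879 in KO. GGA held the WT values of 1.44 and 1.36 and the KO values of 1.20 and 1.13 given above. The fourth Gly codon, GGU, overlapped between genotypes, with 1.10 and 1.14 in WT and 1.14 and 1.07 in KO.

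The log2 change was -0.35 for GGG (SE 0.11, 95% interval -0.62 to -0.09), -0.30 for GGC (SE 0.10, interval -0.56 to -0.05) and -0.26 for GGA (SE 0.10, interval -0.51 to -0.01). None passed the threshold (limma, adjusted p = 0.264, 0.264 and 0.271), and 0 of the 61 codons did, or 0%. At an unadjusted p under 0.05 in the lower direction there were 4 codons, 6.56% of the 61, and GGG, GGC and GGA were 3 of them. When limma's prior was made robust and followed a mean-variance trend GGG passed (adjusted p = 0.0428), where 4.92% of codons passed in this direction. With 2 libraries per genotype the exact permutation test cannot go below a p of 0.333. The change stayed negative without any single library, from -0.43 to -0.27 for GGG, -0.36 to -0.25 for GGC and -0.30 to -0.22 for GGA.

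GGU had a log2 change of -0.02 (95% interval -0.27 to 0.23; limma, adjusted p = 0.958). In WT disomes GGU was below GGG, by 0.16 ± 0.06 (SD, n = 2), and in KO above it, by 0.18 ± 0.05. The difference between these, 0.33, was the largest genotype effect on any of the 12 synonymous pairs in disomes (exact permutation p = 0.333, the smallest possible; adjusted p = 0.667). In monosomes none of the 12 pairs passed in the comparison by genotype, with exact permutation p from 0.0857 for GGU against GGC upward and an adjusted p of 0.971 for each. GGU minus GGC was -0.02 in WT and 0.08 in KO. The test did not use the pairing of same-numbered libraries, and its p cannot go below 0.0286 before adjustment, so small differences could not be detected.

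Pro codons in disomes had no common direction in KO. CCG was lower in both KO libraries, with a log2 change of -0.15 (95% interval -0.39 to 0.09; limma, adjusted p = 0.435), and CCC was higher in both, with 0.09 (-0.16 to 0.34; limma, adjusted p = 0.625). The sign of CCC turned when libraries were centred on their median, to -0.01. CCU had a change of -0.17 that rested on KO replicate 1, since it was 0.01 without that library. CCA had a change of -0.02 (interval -0.32 to 0.29).

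Counted together, 4 of the 8 codons (GGG, GGC, GGA and CCG) were lower in both KO disome libraries than in either WT library, a share to be read against the 23% of all codons, and CCC was higher in both, against 29.5% of all codons. The median change of the 8 codons was -0.16, that of the 4 Gly codons -0.28 and that of all 61 codons 0.04. Taken as the mean of its codons, Gly had the most lowered occupancy of the 20 amino acids in KO disomes, with a change of -0.23, while Pro stood at place 7 from the bottom with -0.06. By mean log2 occupancy, the ranks of GGG, GGC and GGA in KO disomes were 21, 27 and 12, against 9, 16 and 7 in WT. These counts describe members chosen with earlier results known. A relative occupancy can be lowered when other codons of the same library rise, and whether this happened here was not tested. With libraries centred on the 53 other codons, the disome change was -0.42 for GGG, -0.37 for GGC, -0.32 for GGA and -0.08 for GGU. Centring of this kind counts a rise of the other codons as a lowering of Gly, so it cannot test that point.

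The codons whose log2 occupancy ran most like that of a Pro or Gly codon across the 8 monosome libraries were sought among the 53 others. CCG was most like UGG, the codon of Trp, with Pearson's r = 0.91. CCU, CCC and GGC were each most like GCU, an Ala codon, with r of 0.88, 0.71 and 0.84. GGU and GGG were most like AGG, an Arg codon, with r of 0.79 and 0.75. CCA was most like CAA (Gln, r = 0.82) and GGA most like ACU (Thr, r = 0.63). The mean of the Pro codons ran most like GCC (Ala, r = 0.90) and CGA (Arg, r = 0.83), and that of the Gly codons like AGG (r = 0.76) and GCU (r = 0.72). These are the highest of 53 values over 8 points that share libraries and their normalization.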

How the data were processed

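Ribosome-protected fragments of monosome and disome length were sequenced in the libraries described above. The authors trimmed adapters, removed reads on ribosomal and noncoding RNA, mapped the rest uniquely with STAR to canonical transcripts of hg19, and computed codon occupancies with custom scripts. The deposited values are a linear ratio, the relative occupancy of each codon per library. Its denominator and any coverage minimum are not given in the sources used here, and depth is unknown. No read counts were used here. Codons, written with T in the tables, are given with U.

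Groups and replicate numbers came from sample labels. Each table was fitted on its own, on log2 values without a pseudocount, with limma 3.58.1 in R 4.3.3 (default prior, no block) and Benjamini-Hochberg adjustment over 61 codons at a threshold of 0.05. Synonymous pairs were compared by exact permutation tests in Python 3.11.15, adjusted over 12 pairs per table. The fits were tested on simulated data whose codon means and spread came from the monosome libraries. The disome fit was thus not tested at the spread of disome libraries. The correlation of deviations of same-numbered libraries over 61 codons was 0.669, 0.872, 0.534 and 0.686 for monosome replicates 1 to 4. By best match the labels' numbers pair replicates 1, 2 and 4, while WT replicate 3 correlated best with KO replicate 4. In disomes the correlation was 0.0212, so the numbers do not pair those libraries. Alternatives covered scaling, base composition, pseudocount, a filter on low values, the prior, the test, the replicate block and leaving out each library. The members, lists and tests were chosen with earlier results of these data known. Named codons were the 8 members, the most similar other codon of each (2 for each amino acid's mean), and codons of the comparison boxes.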

Additional observations from a re-analysis of the deposited data

Results flagged for a closer look

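In KO monosome replicate 2 the occupancy of CCG was 1.28, against 1.04 to 1.07 in the other 3 KO monosome libraries. The gap between it and the next value took up 0.885 of the range of the 4 values, more than Dixon's 95% limit allows. Of 16 groups of 4 libraries examined, 1 stood out, where chance gives 0.8. WT monosome replicate 2 also had the highest CCG of its genotype, at 1.45. Without KO replicate 2 the change of CCG in KO was -0.17 on the log2 scale, against -0.10 with all libraries, and without WT replicate 2 it was 0.00.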

How the results depend on the processing

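Codons that passed in monosomes numbered 8 under the replicate block and 10 when the block was joined to the correction for base composition, against 4. Of the 8 Pro and Gly codons 0 passed in either of these. With the exact permutation test per codon 0 of the 61 codons passed. With 4 libraries per genotype its p cannot go below 0.0286 before adjustment. After adjustment over 61 codons a few codons at that limit could not pass, so this 0 says nothing about single codons. The block changed no call on the KO minus WT change of a Pro or Gly codon. For synonymous pairs the block, an alternative chosen after seeing the data, averaged same-numbered libraries, and none of the 7 monosome calls could pass, since the smallest exact p was 0.125. Those 7 differences had the same sign in 4 of 4 replicate numbers. In disomes 1 codon passed on the linear scale and 4 with the trend and robust prior, of which 1 was a Pro or Gly codon (GGG). After leaving out a disome library 0 to 3 codons passed, 3 without WT replicate 2 and 1 without KO replicate 2, with 0 Pro or Gly codons among them. In these fits 1 library stands for its genotype and is assumed to vary like the others. Apart from the limits stated for the exact tests, the cause of these differences was not tested.

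Some changes near 0 turned sign. In monosomes GGU was -0.0172 with centring on the 53 other codons, -0.00685 with the same spread and -0.00708 with quantile normalization. In disomes CCC was -0.00558 with median centring, CCA 0.0927 and GGU 0.0280 with the same spread, and CCA 0.0823 with quantile normalization. Without 1 monosome library the change ranged from -0.0411 to 0.0563 for GGU, -0.188 to 0.00298 for CCG, -0.101 to 0.0274 for GGA, -0.154 to -0.0459 for GGC (the value nearest 0 without KO replicate 1) and -0.144 to 0.00857 for GGG. Without 1 disome library it ranged from -0.108 to 0.0774 for CCA, -0.0579 to 0.0249 for GGU and -0.344 to 0.00789 for CCU.

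Monosome synonymous pairs past the threshold numbered 7 under each scaling, pseudocount and base setting run and 5 to 8 when 1 library was left out, and the 4 Pro calls and GGA over GGG were 5 of these. GGU minus GGG was -0.000315 on the linear scale in monosomes, -0.000452 with the same spread, -0.00115 with quantile normalization and -0.0217 in WT alone. In WT monosomes alone GGU minus GGC was -0.0235 and GGG minus GGC -0.00184. In disomes GGU minus GGG was -0.00179 on the linear scale and -0.158 in WT alone, and CCG minus CCC was -0.0410 in KO alone. Without 1 library GGU minus GGG ranged from -0.0169 to 0.0212 in monosomes and -0.0595 to 0.0795 in disomes, CCU minus CCA from -0.00454 to 0.0356 in monosomes and CCA minus CCU from -0.00842 to 0.176 in disomes. Tests on 1 genotype, or on disome pairs, were too small to pass, so only their direction was compared. The median ranks of Pro and Gly codons moved by less than their spread between libraries under every alternative run.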
